A study of Rattus norvegicus with 16 samples.

Results

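The genes described here are Igf1, Igf2 and Igf1r, which encode insulin-like growth factor 1, insulin-like growth factor 2 and the type 1 receptor. They are 3 of the 26689 rat genes in a table of kidney RNA sequencing values and were taken by their Ensembl identifiers, ENSRNOG00000004517 for Igf1, ENSRNOG00000020369 for Igf2 and ENSRNOG00000014187 for Igf1r. The rule that selects them uses identifiers and no measured value, but it was written when earlier results of these data were known. All 3 passed the filter on low values and were tested.

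The kidneys came from male Wistar rat pups that had either the left kidney removed (uninephrectomy, UNX) or a sham operation, on day 1 or day 14 of life, and were killed 3 days later. There were 4 libraries for each surgery on each day, so 4 groups and 16 libraries in all. The labels name the Wistar strain and no other treatment or genotype for every group. The study asked what early nephron loss does to renal expression. Whether new nephrons were still being formed was not measured here at either age. Values are regularised-log (rlog) levels, a log2 scale on which a difference of 1 is a doubling, and the transform shrinks differences, most of all in genes with few reads. The side of the kidney taken from the sham pups is not stated, and whether each library was a separate pup is not stated either, so the p-values rest on variation among libraries that may be technical.

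IGF1 and IGF2 are small secreted proteins related to insulin that promote cell growth, division and survival. Both bind the type 1 receptor, a tyrosine kinase at the cell surface that signals through insulin receptor substrates to the PI3 kinase and MAP kinase pathways. IGF2 is the main ligand of fetal life in rodents, is made from an imprinted gene and declines after birth, whereas IGF1 is driven by growth hormone as the animal grows and has been studied in the enlargement of the kidney that remains after nephrectomy. The binding proteins, the type 2 receptor and the downstream genes of the pathway, and the markers of kidney and other cell types, were not analysed here, because the reference table paired 0 of the 26689 identifiers with a symbol. The names of the 3 genes come from the rule that chose them. The kidney label itself could therefore not be checked against marker genes.

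The start windows of the ligands are shown because Igf2 and Igf1 were the members that changed most, and in opposite directions. Each holds the 250 bases before a transcript start that RefSeq lists on the GRCr8 build, on the strand of the gene, with capitals marking a GC box (GGGCGG, or CCGCCC on the other strand). Igf2 has 2 such starts in the table, called the downstream and the upstream start here by their place on the minus strand. The downstream window lies at chr1:207250476-207250725 and the upstream window at chr1:207253981-207254230, and the Igf1 window lies at chr7:24172282-24172531 on the plus strand. Each of these windows lies within the span that RefSeq gives the gene, so none marks the gene's outermost start.
Igf2, the downstream start: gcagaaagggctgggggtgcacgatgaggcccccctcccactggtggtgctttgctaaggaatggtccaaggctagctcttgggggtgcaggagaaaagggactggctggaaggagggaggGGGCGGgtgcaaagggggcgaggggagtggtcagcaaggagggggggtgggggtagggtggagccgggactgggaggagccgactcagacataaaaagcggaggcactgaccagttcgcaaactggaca
Igf2, the upstream start: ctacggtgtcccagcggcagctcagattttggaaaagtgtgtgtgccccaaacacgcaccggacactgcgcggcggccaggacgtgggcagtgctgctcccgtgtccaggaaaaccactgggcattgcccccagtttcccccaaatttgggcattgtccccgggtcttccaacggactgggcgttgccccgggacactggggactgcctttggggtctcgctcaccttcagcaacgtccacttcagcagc
Igf1: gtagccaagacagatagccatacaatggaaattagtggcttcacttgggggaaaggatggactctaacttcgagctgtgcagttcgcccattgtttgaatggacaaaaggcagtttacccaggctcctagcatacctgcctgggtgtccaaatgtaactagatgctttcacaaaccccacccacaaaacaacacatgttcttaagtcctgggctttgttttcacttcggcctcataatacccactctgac

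The downstream Igf2 window held 1 GC box, and the upstream Igf2 window and the Igf1 window held 0. Among all 33469 windows of this length in the table, 30.5% held at least 1. The TATA motif TATAAA, searched on both strands, was in neither Igf2 window and not in that of Igf1, against 12.9% of all windows. G and C made up 63.6% of the downstream Igf2 window, 62.4% of the upstream one and 46.8% of the Igf1 window, where the median window had 51.2%. The Igf1r window, at chr1:130959747-130959996 on the plus strand, was at 79.6% and held 45 CpG dinucleotides against a median of 5. It also held 1 GC box and no TATAAA. CpG dinucleotides numbered 7 in the downstream Igf2 window, 15 in the upstream one and 3 in the Igf1 window. These are descriptions of the letters only. The values count reads over a whole gene, so they do not show which start was used.

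Before the members are described, 4 libraries need to be set apart. On the second principal component of the 14845 tested genes, which held 6.04% of the variance, sham day 1 library 3 and sham day 14 library 4 stood at −14.5 and −12.9, and the other 14 between −2.58 and 5.95. Among 5051 genes with a mean below 0, UNX day 14 library 3 held the highest value in 47.9% and UNX day 14 library 1 in 20.2%, against 1.70% to 2.99% in each of the other 14. Read totals are not given, so depth is unknown and no counting interval was computed. Surgery day, age, any batch that followed it and the mass of tissue extracted, which was larger for the UNX day 14 kidneys than for the UNX day 1 kidneys per the labels, cannot be told apart.

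Igf2 fell steeply with age. In sham day 1 kidneys its rlog value was 11.72, 12.00, 11.90 and 12.06 in libraries 1 to 4, and in sham day 14 kidneys it was 9.88, 9.83, 10.19 and 9.64. The 2 groups were far apart, with a gap of 1.53 between the nearest values, although sham day 14 library 3 was the highest of its group and library 4 the lowest. The group means were 11.9 ± 0.15 and 9.88 ± 0.23 (rlog, SD, n = 4 each). The difference was −2.03 on the log2 scale (SE 0.11, 95% limma interval −2.26 to −1.81), which is 75.6% lower in linear terms, and it passed the test (limma, Benjamini-Hochberg adjusted p = 4.93e-11). It was the 8th largest fall among the 14845 tested genes.

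The kidneys left after UNX gave the same comparison, with means from libraries that the sham means did not use. The spread was estimated from all 16 libraries in both comparisons. Their SE is therefore shared, and the 2 tests are not independent. Igf2 stood at 11.70, 11.91, 11.93 and 12.12 in UNX day 1 libraries 1 to 4 and at 9.48, 9.92, 9.79 and 9.75 in UNX day 14 libraries 1 to 4. Again no value of one age reached the other, and the gap was 1.79. The difference was −2.18 (SE 0.11, 95% limma interval −2.41 to −1.95), which is 77.9% lower in linear terms (limma adjusted p = 2.16e-11), and it ranked 4th among all falls. In bulk tissue, fewer cells that express a gene and less RNA per cell cannot be told apart, here and in every result that follows.

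Igf1 moved the other way. Its rlog value in sham day 1 libraries 1 to 4 was 8.90, 8.78, 8.56 and 8.62, and in sham day 14 libraries 1 to 4 it was 9.36, 9.18, 9.29 and 9.35. Every day 14 sham value lay above every day 1 sham value, by at least 0.28. The means were 8.72 ± 0.15 and 9.29 ± 0.083 (rlog, SD, n = 4 each). The rise was 0.58 on the log2 scale (SE 0.078, 95% limma interval 0.41 to 0.74), which is 49.2% higher in linear terms (limma adjusted p = 7.23e-06), and it ranked 479th among rises.

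In UNX kidneys Igf1 also rose with age. Its values were 8.92, 8.60, 8.76 and 8.72 in UNX day 1 libraries 1 to 4 and 9.11, 9.22, 8.95 and 9.07 in UNX day 14 libraries 1 to 4. The groups did not overlap, but they came within 0.033 of each other, between UNX day 1 library 1 and UNX day 14 library 3. The rise was 0.34 (SE 0.078, 95% limma interval 0.18 to 0.50), which is 26.5% higher in linear terms (limma adjusted p = 0.00139). It ranked 1438th among rises.

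Igf1r, the receptor for both ligands, fell with age by a much smaller amount. Its rlog value was 11.41, 11.42, 11.78 and 11.59 in sham day 1 libraries 1 to 4 and 11.38, 11.39, 11.36 and 11.46 in sham day 14 libraries 1 to 4. These groups overlapped, since sham day 14 library 4 lay above sham day 1 libraries 1 and 2, and sham day 1 library 3 was the highest of all 16. The means were 11.6 ± 0.17 and 11.4 ± 0.043 (SD, n = 4 each). The fall was −0.16 on the log2 scale (SE 0.060, 95% limma interval −0.28 to −0.032), which is 10.3% lower in linear terms, and passed narrowly (limma adjusted p = 0.0384). Without sham day 1 library 3, the same library that stood apart on the second component, the difference was −0.081 and did not pass (limma adjusted p = 0.158). It also did not pass without sham day 1 library 4 or without sham day 14 library 1, 2 or 3, where it ran from −0.16 to −0.14 (limma adjusted p of 0.0686 to 0.0921).

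In UNX kidneys the Igf1r values were 11.46, 11.52, 11.54 and 11.47 at day 1 and 11.28, 11.30, 11.30 and 11.35 at day 14, in libraries 1 to 4. Both groups were tight, and they were separated by a gap of 0.11. The fall was −0.19 (SE 0.060, 95% limma interval −0.31 to −0.063), which is 12.2% lower in linear terms (limma adjusted p = 0.0144). Leaving out UNX day 14 libraries 1 and 3 together gave −0.17, which did not pass (limma adjusted p = 0.0972). Each of the fits without 1 library passed.

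**Figure D1:**
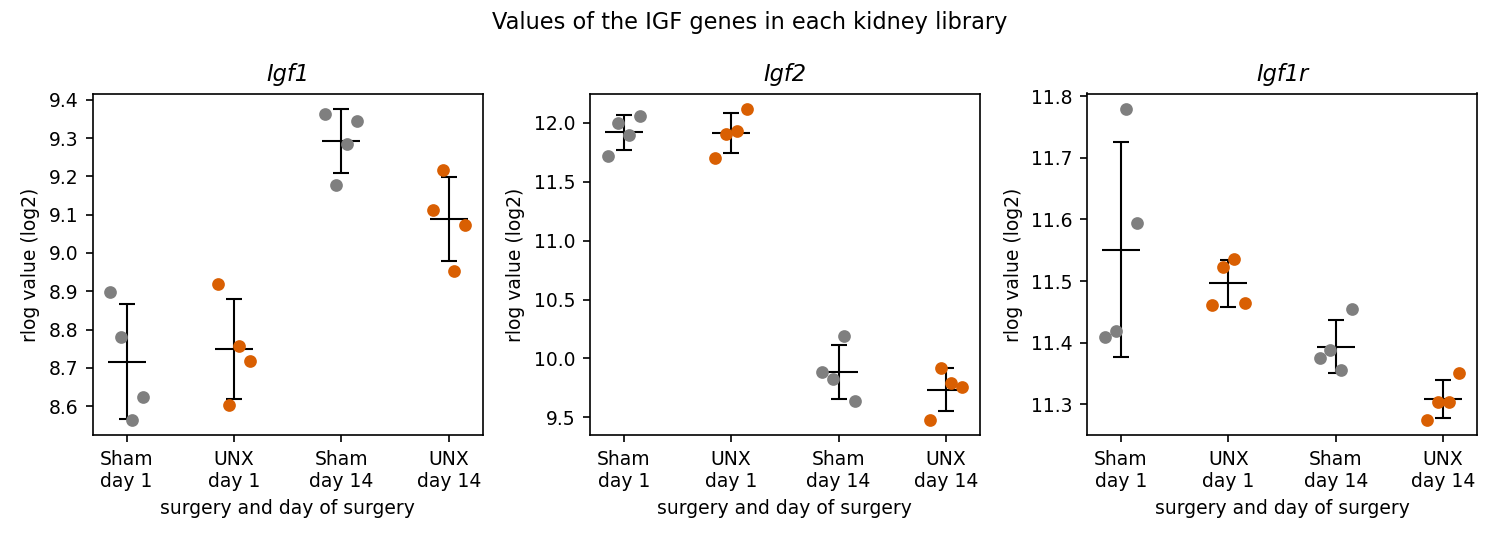
Each point is 1 library, grey for sham and orange for UNX, with the rlog value (log2) on a separate vertical axis for each gene and the group on the horizontal axis; black marks give the mean and SD of 4 libraries. Igf2 drops from about 11.9 to 9.88 in sham kidneys, Igf1 rises from 8.72 to 9.29, and sham day 1 library 3 stands highest for Igf1r at 11.78.

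These age results stand against a background in which much of the kidney transcriptome changed. All 3 members passed in both age comparisons, but so did 45.1% of all tested genes in sham kidneys and 45.9% in UNX kidneys. Values did not overlap between the ages in 36.7% of genes in sham kidneys, a criterion that Igf1 and Igf2 met and Igf1r did not, and in 45.7% in UNX kidneys, where all 3 members met it. Across the tested genes, differences had a median size of 0.14 in each comparison, against −2.03 and −2.18 for Igf2. For Igf1 they were 0.58 and 0.34. The Igf1r differences of −0.16 and −0.19 were close to that median.

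**Figure D2:**
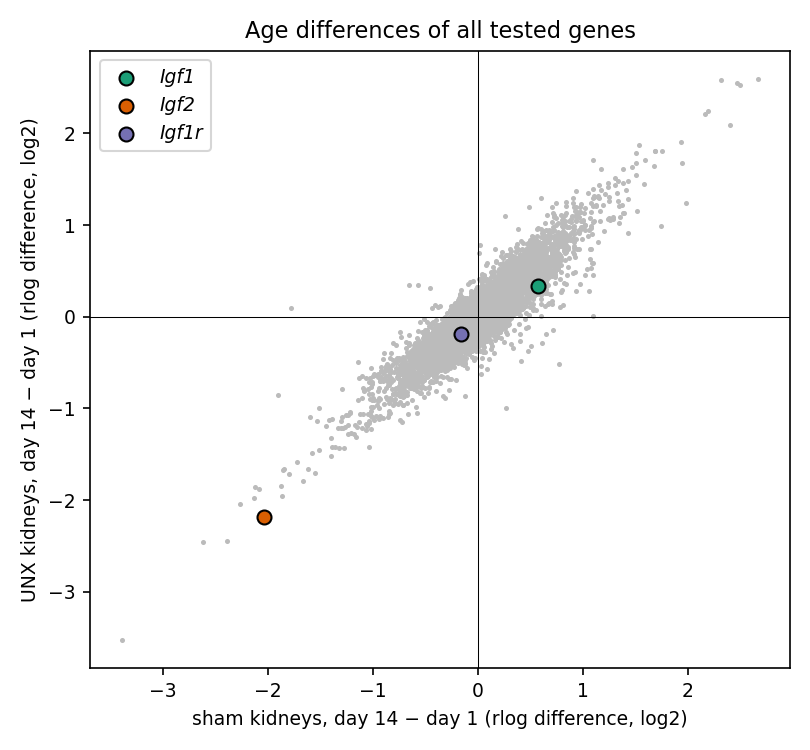
Each grey point is 1 of 14845 tested genes, with the rlog difference between day 14 and day 1 in sham kidneys on the horizontal axis and in UNX kidneys on the vertical axis (log2); the 2 axes share no library. Igf2 lies near the lower left end at −2.03 and −2.18, Igf1 on the rising side at 0.58 and 0.34, and Igf1r inside the dense centre at −0.16 and −0.19.

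The balance between the ligands was followed within each library as the Igf1 value minus the Igf2 value, of which only the change between groups can be read, since the levels are not scaled for gene length. This difference was −3.20 ± 0.27 in sham day 1 and −0.59 ± 0.25 in sham day 14 kidneys (log2, SD, n = 4 each). It was −3.17 ± 0.27 in UNX day 1 and −0.65 ± 0.20 in UNX day 14 kidneys (SD, n = 4 each). The Igf1 to Igf2 ratio was thus 6.11-fold higher at the older age in sham kidneys and 5.73-fold higher in UNX kidneys. The highest day 1 values were −2.82 in sham and −2.79 in UNX kidneys, and the lowest day 14 values were −0.90 and −0.84. The Igf2 value minus the Igf1r value, ligand against receptor, moved by −1.88 in sham and −1.99 in UNX kidneys, and the Igf1 value minus the Igf1r value by 0.73 and 0.53. These ratios are built from the members and are given without a test.

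Surgery on day 1 was followed by no detected difference in the 3 genes. The Igf1 means were 8.75 ± 0.13 after UNX and 8.72 ± 0.15 after sham surgery (rlog, SD, n = 4 each), a difference of 0.033 (95% limma interval −0.13 to 0.20; limma adjusted p = 0.962). For Igf2 the means were 11.9 ± 0.17 and 11.9 ± 0.15 (n = 4 each), a difference of −0.0037 (95% limma interval −0.23 to 0.22; limma adjusted p = 0.998). For Igf1r the difference was −0.054 (95% limma interval −0.18 to 0.070; limma adjusted p = 0.902), and the 4 UNX values, from 11.46 to 11.54, lay inside the sham range of 11.41 to 11.78. Without sham day 1 library 3 the Igf1r difference was 0.022 and that of Igf1 was −0.018, so neither sign was stable. In this comparison 0.00674% of the tested genes passed, and 0 of the 3 members had an unadjusted p under 0.05, which 7.15% of all tested genes had. Values did not overlap between UNX and sham kidneys in 4.51% of the tested genes and in 0 of the 3 members. The 95% limma intervals reached as far as 0.23 from 0 on the log2 scale for Igf2 and 0.20 for Igf1. They are intervals on shrunken values and set no upper limit on a change.

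After surgery on day 14 all 3 genes had lower means in UNX than in sham kidneys, and none passed the test. Igf1 stood at 9.09 ± 0.11 in UNX and 9.29 ± 0.083 in sham kidneys (rlog, SD, n = 4 each), and 3 of the 4 UNX values lay below all sham values, while UNX day 14 library 2, at 9.22, lay above sham day 14 library 2, at 9.18. The Igf1 difference was −0.20 (SE 0.078, 95% limma interval −0.37 to −0.043), which is 13.2% lower in linear terms, with an unadjusted limma p of 0.0161 and an adjusted p of 0.241. It ranked 287th among the falls, and 14.4% of all tested genes had an unadjusted p under 0.05. The adjusted p ran from 0.186 to 0.776 over 28 alternatives, and the difference was −0.15 without UNX day 14 libraries 1 and 3. The sham day 14 libraries serve both this comparison and the rise of Igf1 with age in sham kidneys.

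Igf1r was the only member whose UNX and sham values did not overlap after surgery on day 14. The highest UNX value was 11.35 and the lowest sham value 11.36, a gap of 0.0050, and such separation was found in 6.97% of all tested genes. The means were 11.3 ± 0.031 and 11.4 ± 0.043 (SD, n = 4 each), a difference of −0.085 (95% limma interval −0.21 to 0.040; limma adjusted p = 0.555). This interval pools the spread of all 4 groups, including sham day 1 kidneys, whose Igf1r SD was 0.17. With only the groups compared the limma adjusted p was 0.396. Without sham day 1 library 3 it was 0.343 in limma, so Igf1r passed in neither fit. The Igf2 means were 9.74 ± 0.19 in UNX and 9.88 ± 0.23 in sham kidneys, with overlapping values and a difference of −0.15 (95% limma interval −0.38 to 0.077; limma adjusted p = 0.571). The size of this Igf2 difference rested on single libraries. Leaving out sham day 14 library 3 gave −0.048, and leaving out library 4 of that group gave −0.23. Leaving out UNX day 14 library 1 gave −0.064, or −0.048 when library 3 of that group was left out with it. None of these fits passed. Of all tested genes, 0.0539% passed in this comparison.

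**Figure D3:**
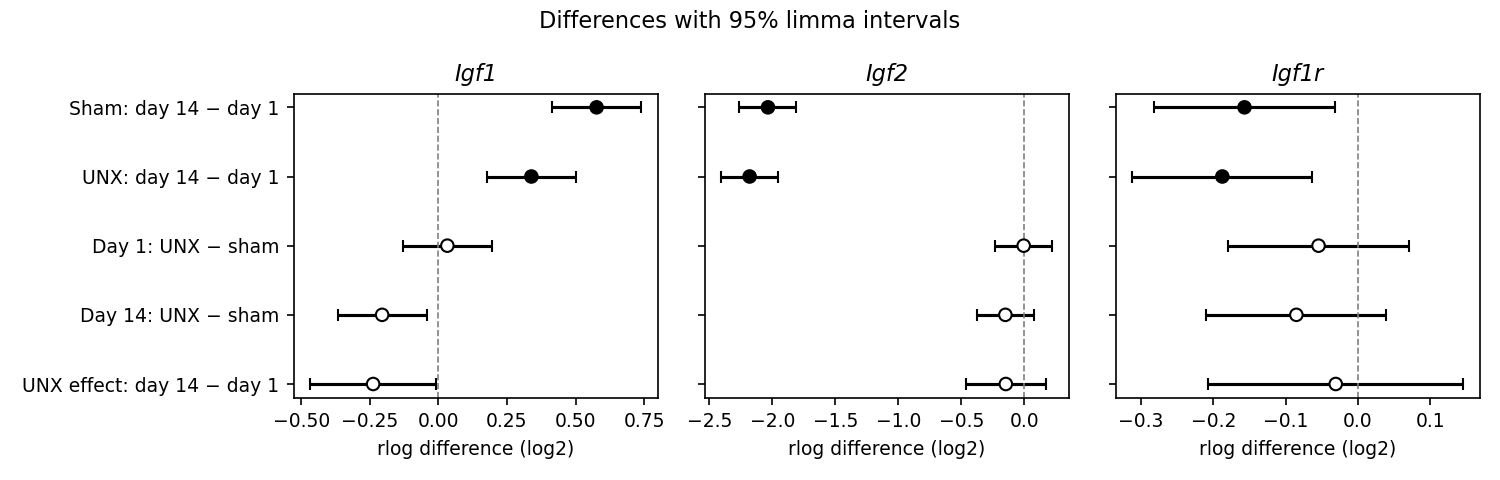
Points are rlog differences (log2, horizontal axis, scaled separately for each gene) with 95% limma intervals for the 5 comparisons on the vertical axis; filled points passed at adjusted p under 0.05 and open points did not. Both age comparisons are filled for every gene, and the comparisons of UNX with sham and of the UNX effect between ages are open, the Igf1 interval at day 14 running from −0.37 to −0.043.

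Whether the difference after UNX depended on the age at surgery was tested directly. In Igf1 it was lower at day 14 than at day 1 by 0.24 on the log2 scale, that is −0.24 (SE 0.11, 95% limma interval −0.47 to −0.0080), with an unadjusted limma p of 0.0432 and an adjusted p of 0.451. This is also the amount by which the rise of Igf1 with age was smaller in UNX than in sham kidneys, 0.34 against 0.58, so those rises were not shown to differ. The values for Igf2 and Igf1r were −0.15 (95% limma interval −0.47 to 0.17; limma adjusted p = 0.765) and −0.031 (95% limma interval −0.21 to 0.15; limma adjusted p = 0.923). Leaving out 1 library at a time moved the Igf2 value between −0.23 and −0.044, the end nearest 0 being without sham day 14 library 3, and the Igf1 value between −0.30 and −0.18. In limma 0% of all tested genes passed this comparison, and 1586 (10.7%) had an unadjusted p under 0.05.

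**Figure D4:**
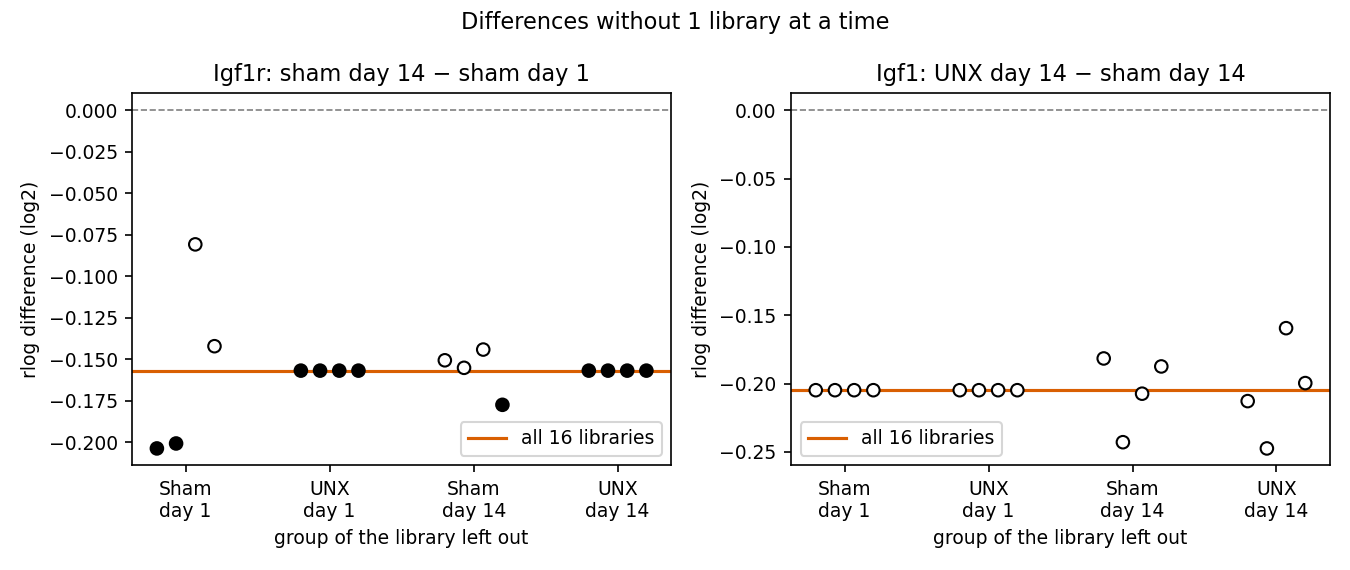
Each point is the rlog difference (log2, vertical axis) fitted without 1 library, placed by that library's group on the horizontal axis; filled points passed at adjusted p under 0.05, and the orange line is the fit of all 16 libraries. The Igf1r difference between sham ages moves from −0.16 to −0.081 without sham day 1 library 3, and the Igf1 difference at day 14 stays between −0.25 and −0.16 without passing.

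The order of the group means differed by gene, and no step within an age passed the test for any of the 3. Within day 1 the sign of the step also turned in some fits. Igf1 was highest in sham day 14, then UNX day 14, UNX day 1 and sham day 1 kidneys, and neither the first pair nor the last pair of neighbours differed beyond the test. Igf2 was highest in sham day 1, then UNX day 1, sham day 14 and UNX day 14 kidneys, again with no difference that passed within an age. Igf1r followed the same order of means as Igf2, from 11.6 to 11.3. The day 1 step of Igf2, −0.0037, turned to 0.0024 with median centring and became positive when library 1 of the UNX group, or library 2 or 4 of the sham group, was left out. The day 1 steps of Igf1 and Igf1r turned without sham day 1 library 3, and that of Igf1 also without UNX day 1 library 1. For Igf2 and Igf1r, the step between UNX day 1 and sham day 14 kidneys was not one of the comparisons tested.

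The members also differed in how much their libraries scattered within a group. The pooled SD within groups was 0.18 for Igf2, larger than in 95.7% of tested genes, 0.12 for Igf1, larger than in 78.2%, and 0.093 for Igf1r, near the median of 0.090. Igf1r was uneven in this respect, with an SD of 0.17 in sham day 1 kidneys and of 0.031 to 0.043 in the other 3 groups.

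Genes with the most similar course over the 16 libraries were found by the root mean square difference of values centred on each gene's own mean, on the log2 scale. The nearest gene to Igf2 was ENSRNOG00000019577, at 0.19 against a median of 1.07 over all other tested genes, and it differed between the ages by −1.86 in sham and −1.96 in UNX kidneys. The nearest to Igf1 was ENSRNOG00000018382, at 0.085 against a median of 0.28, with age differences of 0.59 and 0.49. The nearest to Igf1r was ENSRNOG00000010234, at 0.054 against a median of 0.17. Within a distance of 0.1 there were 683 other genes for Igf1r, 4 for Igf1 and 0 for Igf2. Such distances and counts depend on how much each member varied. The root mean square of its own centred values was 0.12 for Igf1r, 0.26 for Igf1 and 1.07 for Igf2. These genes were picked for their likeness and are given as a description.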

How the data were processed

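Total kidney RNA from male Wistar pups was sequenced in 16 libraries, 4 per group. Per the labels' protocols, DNase-treated RNA went into Ovation Universal libraries, with unwanted sequences depleted by rat oligonucleotides. The submitters' processing notes list DESeq2, featureCounts, Subread 1.5.1, STAR 2.4.0 and BWA 0.7.14 and give no roles. Build, annotation and strand setting are not given in those sources, so reads that overlapping genes share are not separable. The deposited values are rlog levels on a log2 scale, made by the authors. The table's CO columns were matched to the sham titles by day and number. Of 26689 rows, 22715 varied and 14845 with a mean of at least 3 were tested with limma 3.58.1 in R 4.3.3, with 1 mean per group, a mean-variance trend, two-sided tests and adjustment by Benjamini and Hochberg across all tested genes, called under 0.05. No 2 libraries held identical values. Figures and summaries used Python 3.11.15, pandas 2.3.3, numpy 2.4.6 and matplotlib 3.10.9. The members (picked by identifier), lists, naming rule and alternatives were chosen with earlier results of these data known. The rule named the 3 members and, for likeness, the nearest identifier to each. Promoter windows are RefSeq's on GRCr8. The alternatives changed the filter, scaling, variance model, library weights, libraries fitted, threshold and a block for library number.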

Additional observations from a re-analysis of the deposited data

How the results depend on the processing

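The falls of Igf2 with age passed in all 28 alternatives in sham kidneys (−2.14 to −1.95) and in UNX kidneys (−2.25 to −2.08), as did the rise of Igf1 in sham kidneys (0.51 to 0.64). The rise of Igf1 in UNX kidneys, 0.29 to 0.40, was no longer called in 1 of 28, when calls also needed a difference of 0.5 or more (0.34). The fall of Igf1r in UNX kidneys was no longer called in 2 of 28, under the same requirement (−0.19) and without UNX day 14 libraries 1 and 3 (−0.17). The fall of Igf1r in sham kidneys was no longer called in 11 of 28. It was −0.16 without the filter, without the variance trend and with only the groups compared. It was also −0.16 with the requirement of 0.5 and without UNX day 14 libraries 1 and 3. Without sham day 1 library 3 and sham day 14 library 4 it was −0.10. Apart from the requirement of 0.5, why the call was lost was not tested. Leaving out 1 library at a time gave −0.20 to −0.081. For surgery on day 1 the signs were not stable. Igf2 was 0.0024 with median centring, and without the 2 sham libraries that stood apart Igf1 was −0.018 and Igf1r 0.022. Leaving out 1 library moved Igf1 between −0.024 and 0.093, Igf2 between −0.071 and 0.067 and Igf1r between −0.10 and 0.022, and moved the age dependence of Igf1r between −0.11 and 0.016. Signs turned without UNX day 1 library 1 (Igf1, Igf2), sham day 1 library 3 (Igf1, Igf1r), or sham day 1 library 2 or 4 (Igf2), and for the age dependence without sham day 1 library 1 or 2. For surgery on day 14 no member passed in any of 28 alternatives and each stayed negative, Igf1 from −0.25 to −0.15, Igf2 from −0.23 to −0.048 and Igf1r from −0.099 to −0.065.

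Counts over all tested genes moved more. The 6696 genes that differed with age in sham kidneys became 1234, and the 6821 in UNX kidneys 1292, when a difference of at least 0.5 was required. The 1 gene after UNX on day 1 ranged from 0 to 9, the 8 genes on day 14 from 0 to 90 and the 0 genes of the age dependence from 0 to 5. A replicate block for library number changed no call of the 3 members, with age differences in sham kidneys of 0.58 for Igf1, −2.03 for Igf2 and −0.16 for Igf1r. The library numbers gave no sign of pairing. Correlations of same-numbered libraries across genes ran from −0.23 to 0.12, with 2 of 24 above 0.1. A library correlated best with its own number in 10 of 48 cases, each time among 4 candidates. With so few libraries per group this check could miss a weak pairing. Median library values spanned 0.022, so scaling moved little. Unknown depth limits what can be said of precision.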
